A study of Mus musculus with 12 samples.

Results

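Genomic imprinting marks a small set of genes by the parent they came from, so that only the maternal or only the paternal copy is transcribed. The marks are differentially methylated regions set in the germline, and one such region usually governs a cluster of neighbouring genes, often with a long non-coding RNA expressed from one parental copy and protein-coding genes expressed from the other. Many of these genes act on growth of the fetus and placenta, and the methylation that keeps them monoallelic is known to be fragile in cultured embryonic stem (ES) cells. Here 34 imprinted genes of 19 clusters or single loci were followed across 3 mouse ES cell lines that carry an inducible *Xist* gene. They were picked by name and found under those names among the 24627 genes of the count files; 20 are known as expressed from the paternal copy, 13 from the maternal copy, and *Gnas* gives transcripts from either. Of the 34, 33 had at least 10 counts in at least 6 of the 12 libraries, as did 15198 genes in all. The exception was *Airn*, the antisense RNA that silences *Igf2r*, with 0 to 13 counts per library.

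The cells are male J1 ES cells in which a tetracycline-responsive promoter drives *Xist* on the only X, so that doxycycline (DOX) induces it. *Xist* is the non-coding RNA that silences the X chromosome it is made from. The 3 lines were: *Xist* FL, with full-length *Xist*, *Xist* ΔA, without the A repeat, and *Xist* ΔB+C, without the B and C repeats. Each was differentiated for 2 days by withdrawal of leukemia inhibitory factor, with DOX at 1.5 µg/ml (DOX) or without it (noDOX), giving 6 groups of 2 libraries of total RNA. *Xist* ΔB+C is a clone made by genome editing of the *Xist* FL line. *Xist* FL and *Xist* ΔA were lines from earlier work, and the sources used here do not say that ΔA was derived from FL; each genotype is thus 1 line, and a deletion and the history of the line that carries it cannot be told apart. The second DOX library of *Xist* ΔB+C was prepared from 100 ng of RNA and the other 11 from 1000 ng. The study describes the 2 libraries of a group as biological duplicates, and p-values measure the spread between them.

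Libraries held 31337490 to 41240470 counts, of which the imprinted genes took 0.214 to 0.287%. *Xist* had 84 to 268 counts without DOX and 18358 to 71348 with DOX, so the labels for treatment held in all 12. The 13 ES cell markers were detected in every library and summed to 4297 to 6543 CPM (counts scaled to 1000000 per library), against 19.7 to 71.7 CPM for the 9 markers of fibroblasts, the usual feeder cells. Read counts do not separate the parental copies, so every value below is the sum of both alleles, and in bulk RNA fewer expressing cells and less RNA per cell cannot be told apart.

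Windows around the start sites of 28 of the 34 genes were found in RefSeq (build GRCm38.p6, 250 bases before to 50 bases after each start), 45 windows in all. They held a median of 14 CpG dinucleotides, against 7 in all 32851 windows of the table. The hexamer TGCCGC, read on either strand, which is the core of the motif bound in its methylated form by ZFP57, a keeper of imprints, was in 26.7% of the windows of the imprinted genes and in 11.6% of all windows. The hexamer itself holds a CpG, and the part of CpG content in the higher share was not tested. The windows surround start sites and were not chosen as differentially methylated regions. A window with or without the hexamer therefore does not show whether such a region holds it. Windows of 1 gene can nearly coincide, as do those of *Mest* that start at 30737800 and 30737803 and both hold the hexamer. The windows of the genes on which the results below turn are printed 5′ to 3′ on the strand of the gene, with every CpG in capitals. In the *Dlk1*-Meg3 cluster, whose 3 non-coding RNAs were lowest in one line, the windows were those of *Meg3* at chr12:109540746-109541045, *Rian* at chr12:109603695-109603994 and *Mirg* at chr12:109734731-109735030, all on the plus strand.
*Meg3*: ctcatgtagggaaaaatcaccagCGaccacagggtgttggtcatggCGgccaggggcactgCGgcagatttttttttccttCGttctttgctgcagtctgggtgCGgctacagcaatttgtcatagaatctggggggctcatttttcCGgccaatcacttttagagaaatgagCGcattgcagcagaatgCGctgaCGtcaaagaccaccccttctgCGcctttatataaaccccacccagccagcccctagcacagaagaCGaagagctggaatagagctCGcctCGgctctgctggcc
*Rian*: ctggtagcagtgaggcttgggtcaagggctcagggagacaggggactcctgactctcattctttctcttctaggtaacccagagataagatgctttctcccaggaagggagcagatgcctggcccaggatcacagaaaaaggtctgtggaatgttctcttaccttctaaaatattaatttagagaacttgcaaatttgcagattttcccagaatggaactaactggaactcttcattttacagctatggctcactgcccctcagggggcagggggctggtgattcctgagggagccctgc
*Mirg*: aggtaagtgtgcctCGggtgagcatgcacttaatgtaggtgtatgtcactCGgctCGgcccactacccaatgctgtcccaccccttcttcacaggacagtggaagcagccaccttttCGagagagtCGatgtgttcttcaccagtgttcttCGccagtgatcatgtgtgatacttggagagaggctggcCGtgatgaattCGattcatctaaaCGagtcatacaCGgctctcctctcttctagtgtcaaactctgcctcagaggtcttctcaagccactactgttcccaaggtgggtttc
The *Meg3* window held 13 CpG and 1 hexamer, the *Mirg* window 10 CpG and no hexamer, and the *Rian* window no CpG at all. From chromosome 7 the windows shown are those of *Peg3* at chr7:6730370-6730669 (minus strand), which also holds the start of the divergent gene *Usp29*, *Magel2* at chr7:62376729-62377028 (plus strand) and *Ndn* at chr7:62348027-62348326 (plus strand), with 13, 10 and 11 CpG and no hexamer. From chromosome 2 the window of the retrogene *Mcts2* at chr2:152686898-152687197 (plus strand) held 25 CpG and 1 hexamer.
*Peg3*: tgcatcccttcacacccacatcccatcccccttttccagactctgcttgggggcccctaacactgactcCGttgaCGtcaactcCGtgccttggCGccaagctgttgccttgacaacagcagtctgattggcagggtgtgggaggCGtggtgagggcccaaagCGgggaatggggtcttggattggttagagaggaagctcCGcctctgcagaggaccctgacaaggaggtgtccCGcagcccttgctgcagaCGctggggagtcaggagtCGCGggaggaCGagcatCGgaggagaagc
*Magel2*: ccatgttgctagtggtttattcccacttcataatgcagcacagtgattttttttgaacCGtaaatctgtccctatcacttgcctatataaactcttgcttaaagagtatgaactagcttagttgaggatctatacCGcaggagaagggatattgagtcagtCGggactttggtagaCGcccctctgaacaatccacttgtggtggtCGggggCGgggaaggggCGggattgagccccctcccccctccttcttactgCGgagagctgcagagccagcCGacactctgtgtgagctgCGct
*Ndn*: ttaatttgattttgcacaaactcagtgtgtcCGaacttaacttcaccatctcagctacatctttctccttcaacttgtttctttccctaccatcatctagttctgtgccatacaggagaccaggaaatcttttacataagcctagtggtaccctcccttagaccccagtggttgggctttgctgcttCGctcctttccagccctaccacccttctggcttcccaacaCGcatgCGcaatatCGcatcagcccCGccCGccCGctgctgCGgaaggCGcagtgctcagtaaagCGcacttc
*Mcts2*: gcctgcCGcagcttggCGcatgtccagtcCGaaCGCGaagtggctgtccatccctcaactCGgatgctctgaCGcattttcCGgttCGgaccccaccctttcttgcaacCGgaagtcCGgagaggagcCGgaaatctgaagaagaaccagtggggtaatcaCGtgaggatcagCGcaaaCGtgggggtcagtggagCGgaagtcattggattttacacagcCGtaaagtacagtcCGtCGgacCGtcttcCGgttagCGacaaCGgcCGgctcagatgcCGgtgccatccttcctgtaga

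Without DOX the *Xist* ΔA line differed from the other lines in several imprinted clusters. Relative to *Xist* FL, the maternally expressed RNAs *Meg3*, *Rian* and *Mirg* and the paternally expressed *Peg3* were lower by 1.70- to 1.96-fold, and *Magel2* was 2.76-fold higher. In the edgeR quasi-likelihood test across all genes, 9 of 33 imprinted genes were called at an adjusted p under 0.05, against 8.61% of all genes tested. Of the 9, 7 were lower in ΔA (4.87% of all genes were) and 2 were higher (3.74% of all genes). Between ΔB+C and ΔA, a comparison that uses the same ΔA libraries, 8 of 33 were called against 5.82% of all genes, with 6 higher in ΔB+C (3.33% of all genes) and 2 lower (2.49%). Between ΔB+C and its parental line FL no imprinted gene was called, while 0.0197% of all genes were; 8 of 33 had an unadjusted p under 0.05, as had 5.47% of all genes, and DESeq2 called 1, *Mest*. The median absolute log2 (fold change) of the imprinted genes was 0.44 for ΔA minus FL and 0.30 for ΔB+C minus FL, against 0.25 and 0.14 over all genes.

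**Figure D1:**
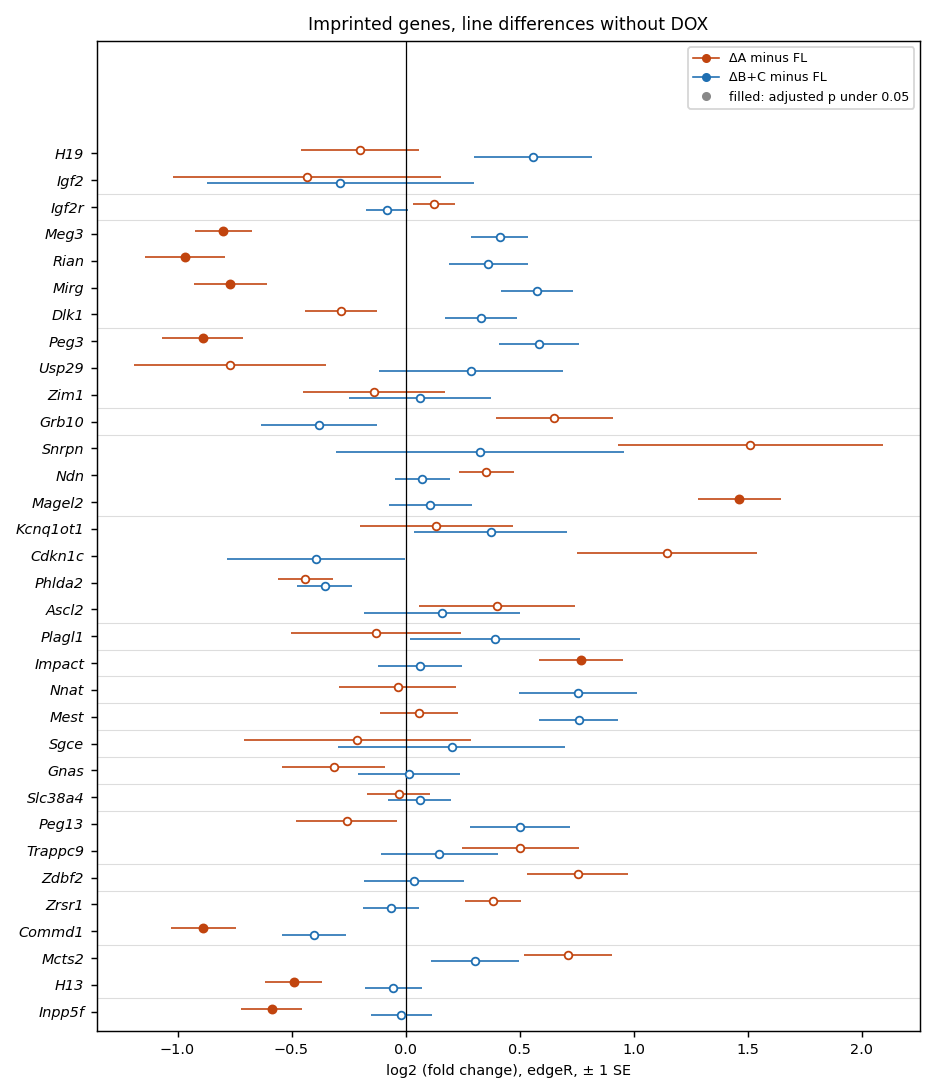
Log2 (fold change) without DOX of the 33 imprinted genes tested, with 1 standard error (SE), for ΔA minus FL and ΔB+C minus FL; grey lines separate clusters and filled points passed the test. *Magel2* and *Impact* are the 2 filled points above 0, and all points for ΔB+C minus FL are open.

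Libraries with the same replicate number deviated together in all 15 pairs of groups, and with that number as a block in the fit the calls increased for the imprinted genes and for all genes alike. In that blocked fit 19 of 33 were called for ΔA minus FL (30.5% of all genes), 22 for ΔB+C minus ΔA (25.5%) and 3 for ΔB+C minus FL (0.895%). When each line was represented by the mean of its noDOX and DOX libraries, 17 were called for ΔA minus FL (23.8% of all genes), 21 for ΔB+C minus ΔA (23.9%) and 1, *Meg3*, for ΔB+C minus FL (0.151%). With both changes together the counts were 24 (46.7% of all genes), 27 (47.2%) and 14 (10.0%). Single libraries mattered for the unblocked count of ΔA minus FL, which was 1 without ΔA noDOX replicate 2, 2 without FL noDOX replicate 1, 4 without FL noDOX replicate 2 and 5 without ΔA noDOX replicate 1. For ΔB+C minus ΔA it was 4 without ΔB+C noDOX replicate 1 and 5 without any one of ΔB+C noDOX replicate 2, the 2 ΔA noDOX libraries and the 2 FL DOX libraries.

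The *Dlk1*-Meg3 cluster on chromosome 12 holds the paternally expressed growth regulator *Dlk1* and the maternally expressed non-coding RNAs *Meg3*, *Rian*, which hosts small nucleolar RNAs, and *Mirg*, which hosts microRNAs. *Meg3* was at 145 and 148 CPM in FL noDOX, 89.1 and 79.2 CPM in ΔA noDOX and 215 and 175 CPM in ΔB+C noDOX. The 3 lines did not overlap, and including the DOX libraries the 4 libraries of each line spanned 145 to 156 CPM in FL, 76.2 to 89.1 CPM in ΔA and 175 to 296 CPM in ΔB+C. The log2 (fold change) of *Meg3* was −0.80 ± 0.12 (SE) for ΔA minus FL (adjusted p = 0.00653) and 1.21 ± 0.13 for ΔB+C minus ΔA (adjusted p = 0.000922).

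*Rian* was at 131 and 126 CPM in FL noDOX, 74.9 and 56.5 CPM in ΔA noDOX and 180 and 151 CPM in ΔB+C noDOX. *Mirg*, far less abundant, was at 8.98 and 8.89 CPM in FL, 5.84 and 4.64 CPM in ΔA and 14.4 and 12.2 CPM in ΔB+C, all without DOX. Both RNAs gave the same order of lines as *Meg3*, ΔA lowest and ΔB+C highest, without overlap. *Rian* was lower in ΔA than in FL by a log2 (fold change) of −0.97 ± 0.18 (adjusted p = 0.0124) and *Mirg* by −0.77 ± 0.16 (adjusted p = 0.0219). Against ΔA, ΔB+C was higher by 1.33 ± 0.18 for *Rian* (adjusted p = 0.00379) and by 1.34 ± 0.16 for *Mirg* (adjusted p = 0.00232). All 3 calls for ΔB+C minus ΔA were kept without any one of the 12 libraries, whereas for ΔA minus FL the 3 calls were lost without ΔA noDOX replicate 2, and those of *Rian* and *Mirg* also without either FL noDOX library.

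The paternally expressed partner, *Dlk1*, was at 15.3 and 15.8 CPM in FL noDOX, 12.8 and 12.7 CPM in ΔA noDOX and 19 and 20.1 CPM in ΔB+C noDOX, with values of −0.28 ± 0.16 for ΔA minus FL (adjusted p = 0.302) and 0.62 ± 0.16 for ΔB+C minus ΔA (adjusted p = 0.0541). With the replicate block the latter passed (adjusted p = 0.00539). The 12 other tested genes within 1 Mb of the cluster, neighbours of the imprinted domain excluded, had a median of 0.25 for ΔA minus FL and −0.22 for ΔB+C minus ΔA, opposite in sign to the 4 imprinted genes; the 535 other genes of chromosome 12 had medians of 0.19 and −0.18.

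**Figure D2:**
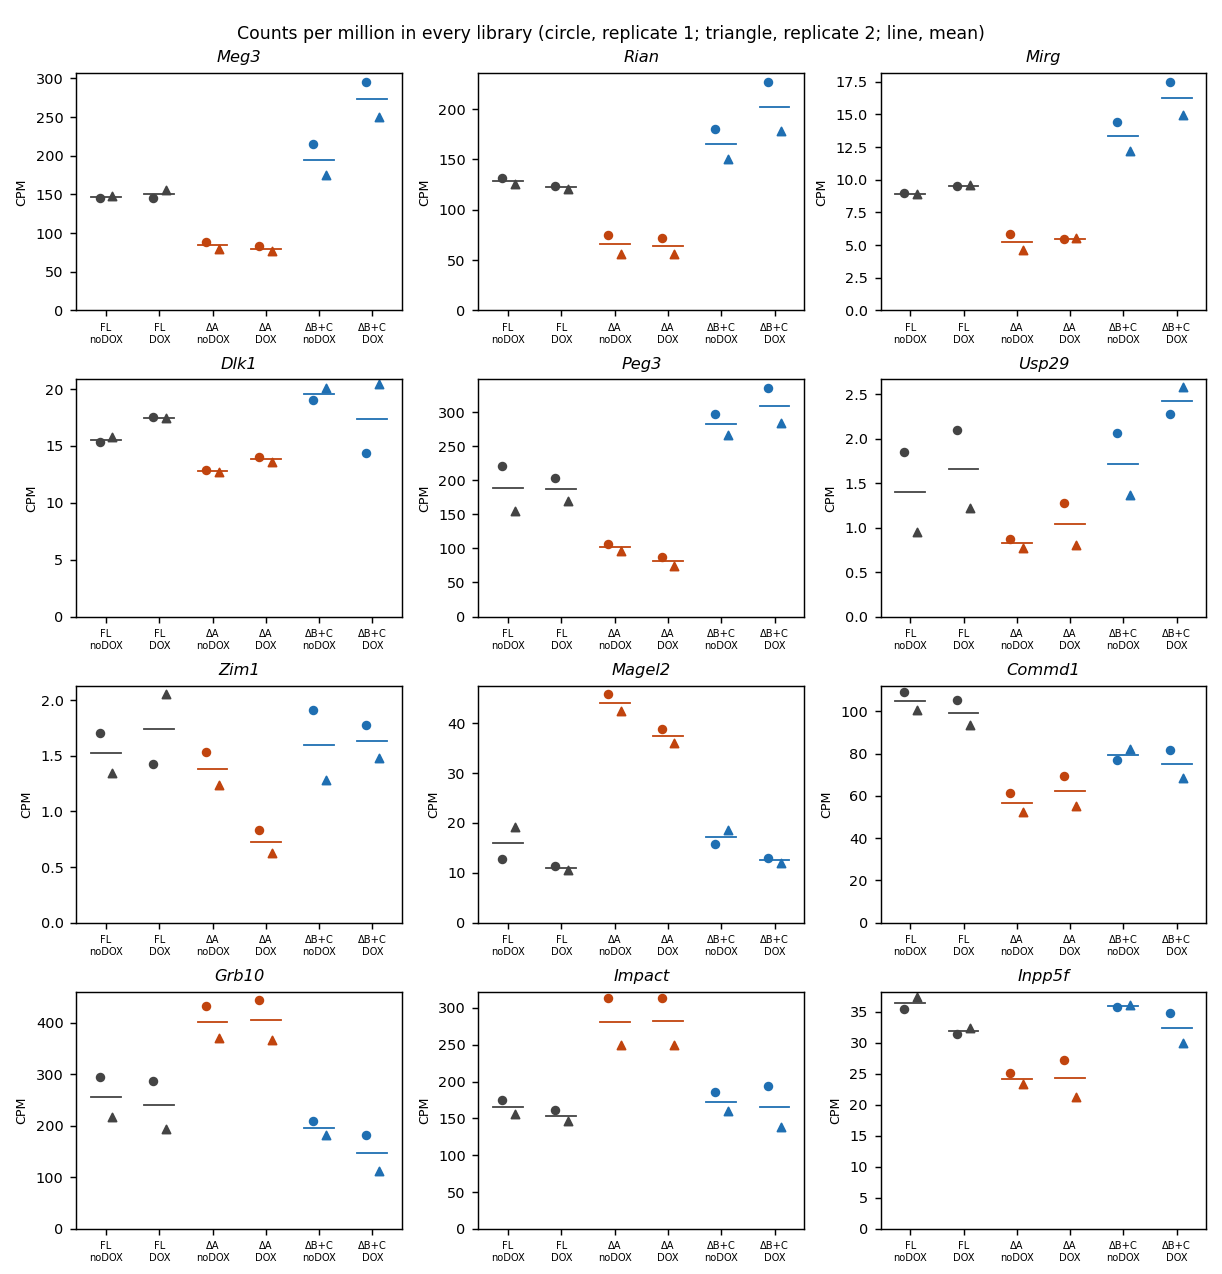
CPM of 12 imprinted genes in each library, by line and treatment, with both replicates and their mean; each vertical axis starts at 0. The means of ΔA lie below those of the other lines for *Meg3*, *Rian*, *Mirg*, *Peg3*, *Commd1* and *Inpp5f* and above them for *Magel2*, *Grb10* and *Impact*, with and without DOX.

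*Peg3*, a zinc finger gene of chromosome 7 expressed from the paternal copy, was at 221 and 156 CPM in FL noDOX, 107 and 96.5 CPM in ΔA noDOX and 298 and 267 CPM in ΔB+C noDOX. Again ΔA was lowest and ΔB+C highest without overlap, also over the 4 libraries of each line, which spanned 156 to 221, 74.2 to 107 and 267 to 335 CPM. Its log2 (fold change) was −0.89 ± 0.18 for ΔA minus FL (adjusted p = 0.0175) and 1.47 ± 0.18 for ΔB+C minus ΔA (adjusted p = 0.00235). The first call was lost without either ΔA noDOX library or FL noDOX replicate 1, and the second was kept without any one library. For ΔB+C minus FL the value was 0.58 ± 0.18 (adjusted p = 0.731), and the blocked fit called it (adjusted p = 0.00515).

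*Usp29*, which starts back to back with *Peg3* and is also paternally expressed, was near the lower end of detection, at 1.85 and 0.954 CPM in FL noDOX, 0.876 and 0.773 CPM in ΔA noDOX and 2.07 and 1.37 CPM in ΔB+C noDOX. Its values were −0.77 ± 0.42 for ΔA minus FL (adjusted p = 0.295) and 1.06 ± 0.42 for ΔB+C minus ΔA (adjusted p = 0.186, and 0.0257 with the replicate block). *Zim1*, the maternally expressed zinc finger gene next to them, lay between 1.24 and 1.91 CPM in the 6 noDOX libraries. Its groups overlapped for ΔA minus FL, ΔB+C minus FL and ΔB+C minus ΔA. The 14 other tested genes within 1 Mb had a median of 0.03 for ΔA minus FL, 2 of them higher and none lower.

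The *Snrpn* cluster on chromosome 7, the mouse counterpart of the Prader-Willi region, holds the paternally expressed genes *Ndn* and *Magel2*, both of the MAGE family, and *Snrpn*, a splicing factor. *Magel2* was at 12.8 and 19.2 CPM in FL noDOX, 45.8 and 42.4 CPM in ΔA noDOX and 15.8 and 18.7 CPM in ΔB+C noDOX. ΔA stood apart from both other lines, which overlapped. The log2 (fold change) was 1.46 ± 0.18 for ΔA minus FL (adjusted p = 0.00246) and −1.35 ± 0.18 for ΔB+C minus ΔA (adjusted p = 0.00393). The first call was kept without any one library, and the second was lost only without ΔB+C noDOX replicate 1 (adjusted p = 0.0525).

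*Ndn* was at 26.0 and 27.8 CPM in FL noDOX, 37.6 and 31.2 CPM in ΔA noDOX and 29.2 and 27.4 CPM in ΔB+C noDOX, with 0.35 ± 0.12 for ΔA minus FL (adjusted p = 0.101, and 0.0179 with the replicate block). *Snrpn* had 2 to 28 counts per library and lay at 0.171 and 0.280 CPM in FL, 0.438 and 0.865 CPM in ΔA and 0.265 and 0.298 CPM in ΔB+C without DOX, which gave 1.51 ± 0.58 for ΔA minus FL (adjusted p = 0.145, and 0.0494 with the block). *Snurf*, which shares exons with *Snrpn*, had no counts in any library; reads that fit both genes may have been left out of the counts, so the *Snrpn* level is uncertain. *Mkrn3*, another paternally expressed gene of this cluster, was at 6.47 and 6.37 CPM in FL noDOX and 10.2 and 9.43 CPM in ΔA noDOX, higher in ΔA by a log2 (fold change) of 0.61 ± 0.14 (adjusted p = 0.0299), and at 5.65 and 5.30 CPM in ΔB+C noDOX, lower than ΔA by −0.84 ± 0.14 (adjusted p = 0.0121).

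*Zrsr1*, *Commd1* and *Grb10* lie on chromosome 11, where the background itself differed between lines. The 1271 other genes of chromosome 11 had a median log2 (fold change) of −0.35 for ΔA minus FL, with 257 lower and 9 higher, and of −0.16 for ΔB+C minus FL, whereas the medians of the other 9 chromosomes that hold imprinted genes lay between −0.04 and 0.19 for ΔA minus FL and between −0.02 and 0.09 for ΔB+C minus FL. *Commd1*, a maternally expressed regulator of copper and NF-κB, was at 109 and 100 CPM in FL noDOX, 61.2 and 52.2 CPM in ΔA noDOX and 76.9 and 82.0 CPM in ΔB+C noDOX. It was lower in ΔA than in FL by −0.89 ± 0.14 (adjusted p = 0.00717), a call lost without ΔA noDOX replicate 2 or FL noDOX replicate 1; the 15 other tested genes within 1 Mb had a median of −0.42, 5 of them lower. The part of the chromosome-wide difference in this value was not tested.

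*Zrsr1*, a paternally expressed retrogene inside an intron of *Commd1* that encodes a splicing factor, was at 18.4 and 16.7 CPM in FL, 23.3 and 22.5 CPM in ΔA and 18.1 and 15.5 CPM in ΔB+C without DOX. Its values were 0.38 ± 0.12 for ΔA minus FL (adjusted p = 0.0876) and −0.44 ± 0.12 for ΔB+C minus ΔA (adjusted p = 0.0692), opposite in sign to its host, and both passed with the replicate block (adjusted p = 0.0135 and 0.00756). *Grb10*, an adaptor that restrains growth signalling and is maternally expressed in most tissues, was at 294 and 217 CPM in FL noDOX, 432 and 371 CPM in ΔA noDOX and 210 and 183 CPM in ΔB+C noDOX. It was lower in ΔB+C than in ΔA by −1.03 ± 0.26, at the edge of the threshold (adjusted p = 0.05), and this call was kept without 2 of the 12 libraries only, ΔB+C DOX replicate 1 or 2. For ΔA minus FL it gave 0.65 ± 0.26 (adjusted p = 0.152, and 0.000915 with the block), on a chromosome whose median pointed the other way.

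**Figure D3:**
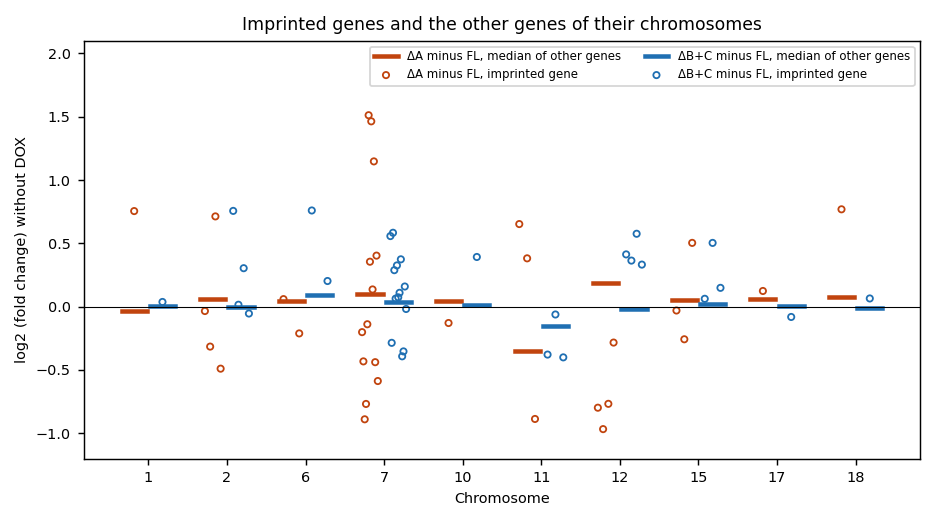
Log2 (fold change) without DOX of each imprinted gene (circles) beside the median of the other tested genes of its chromosome (bars), for ΔA minus FL and ΔB+C minus FL. The bars lie close to 0 except on chromosome 11, at −0.35 and −0.16, and for ΔA minus FL on chromosome 12, at 0.19.

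*Mcts2* and *H13* form a similar pair on chromosome 2, in which the paternally expressed retrogene *Mcts2* sits in an intron of the maternally expressed peptidase gene *H13*. *H13* was at 79.4 and 66.2 CPM in FL noDOX, 55.3 and 48.4 CPM in ΔA noDOX and 73.1 and 67.1 CPM in ΔB+C noDOX, and was lower in ΔA by −0.49 ± 0.13 (adjusted p = 0.0420), a call lost without 9 of the 12 libraries taken one at a time, among them all 4 compared. *Mcts2* was at 11.5 and 10.8 CPM in FL, 17.9 and 18.6 CPM in ΔA and 14.0 and 13.5 CPM in ΔB+C without DOX, with 0.71 ± 0.19 for ΔA minus FL (adjusted p = 0.0527, just outside the threshold, and 0.00214 with the replicate block). As in the *Zrsr1*-Commd1 pair, host and retrogene differed in opposite directions between ΔA and FL.

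Among single imprinted loci, *Impact*, a paternally expressed regulator of translation on chromosome 18, was at 175 and 156 CPM in FL noDOX, 313 and 250 CPM in ΔA noDOX and 186 and 159 CPM in ΔB+C noDOX. It was higher in ΔA than in FL by 0.77 ± 0.18 (adjusted p = 0.0341), and ΔB+C minus ΔA gave −0.70 ± 0.18 (adjusted p = 0.0572, and 8.94e-05 with the block). *Inpp5f*, an inositol phosphatase gene of which a brain isoform is paternally expressed, was at 35.4 and 37.4 CPM in FL, 25.1 and 23.4 CPM in ΔA and 35.8 and 36.1 CPM in ΔB+C without DOX. ΔA lay below both other lines, by −0.59 ± 0.13 against FL (adjusted p = 0.0284) and with 0.57 ± 0.13 for ΔB+C minus ΔA (adjusted p = 0.0422). For *Impact* and *Inpp5f* each of the calls was lost without any one of the 4 libraries compared.

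*Zdbf2*, a paternally expressed zinc finger gene of chromosome 1, was at 133 and 102 CPM in FL noDOX, 206 and 190 CPM in ΔA noDOX and 138 and 102 CPM in ΔB+C noDOX, with 0.75 ± 0.22 for ΔA minus FL (adjusted p = 0.0661, and 0.000309 with the block). *Mest*, a paternally expressed hydrolase-like gene, was the one gene higher in ΔB+C than in ΔA without standing apart in ΔA against FL. It was at 66.2 and 48.9 CPM in FL, 58.6 and 61.4 CPM in ΔA and 104 and 90.9 CPM in ΔB+C without DOX, which gave 0.70 ± 0.17 for ΔB+C minus ΔA (adjusted p = 0.0485), a call lost without 6 of the 12 libraries taken one at a time, the 4 compared among them. Against FL the value was 0.76 ± 0.17 (adjusted p = 0.552), the lowest adjusted p of the imprinted genes in that comparison.

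In the *Kcnq1ot1* cluster of chromosome 7, *Cdkn1c*, a maternally expressed inhibitor of the cell cycle, was at 79.4 and 109 CPM in FL noDOX, 151 and 267 CPM in ΔA noDOX and 56.6 and 87.1 CPM in ΔB+C noDOX. The line order held within each replicate number, but replicate 2 exceeded replicate 1 in all 6 groups, and the unblocked values, 1.15 ± 0.39 for ΔA minus FL (adjusted p = 0.106) and −1.54 ± 0.40 for ΔB+C minus ΔA (adjusted p = 0.0558), did not pass. With the replicate block they did (adjusted p = 8.39e-06 and 7.81e-07). *Phlda2*, a maternally expressed regulator of placental growth, was at 63.4 and 62.5 CPM in FL, 48.5 and 44.3 CPM in ΔA and 55.2 and 43.3 CPM in ΔB+C without DOX, with −0.44 ± 0.12 for ΔA minus FL (adjusted p = 0.0542, and 0.00216 with the block). *Kcnq1ot1*, the paternally expressed antisense RNA of the cluster, and *Ascl2*, a maternally expressed transcription factor of trophoblast, spanned 5.19 to 13.3 CPM and 5.71 to 10.9 CPM over all 12 libraries.

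The *H19*-Igf2 cluster of chromosome 7 holds one gene of each parental direction. *H19*, the maternally expressed RNA, was at 39.5 and 53.8 CPM in FL noDOX, 32.3 and 48.9 CPM in ΔA noDOX and 54.5 and 82.9 CPM in ΔB+C noDOX, and was called in the blocked fit but not without the block, for ΔB+C minus FL (0.55, adjusted p = 0.0440) and ΔB+C minus ΔA (0.76, adjusted p = 0.000603). *Igf2*, the paternally expressed growth factor, spanned 7.45 to 27.0 CPM and differed between the replicates of FL more than between lines, at 21.0 and 7.91 CPM in FL noDOX. *Nnat*, a paternally expressed gene of neurons, was at 61.2 and 54.3 CPM in FL, 65.3 and 47.5 CPM in ΔA and 113 and 81.9 CPM in ΔB+C without DOX, and with the block was higher in ΔB+C than in FL by 0.74 (adjusted p = 0.00238) and than in ΔA by 0.79 (adjusted p = 6.21e-05).

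The remaining genes showed no unblocked call. *Igf2r*, the maternally expressed receptor that clears IGF2, stayed between 72.2 and 90.7 CPM in all 12 libraries, and *Slc38a4*, an amino acid transporter, between 194 and 253 CPM. *Gnas*, a G protein subunit gene, spanned 280 to 448 CPM, *Plagl1*, a zinc finger regulator of growth, 6.93 to 22.1 CPM, and *Trappc9*, a trafficking factor, 12.7 to 23.7 CPM. *Peg13*, a non-coding RNA in an intron of *Trappc9*, spanned 2.71 to 7.37 CPM, with ΔB+C at 5.44 to 7.37 CPM above the 3.54 to 5.15 CPM of FL, and *Sgce*, a sarcoglycan, spanned 4.30 to 16.8 CPM. For genes that overlap another one, such as *Igf2r* and *Airn*, *Commd1* and *Zrsr1*, *H13* and *Mcts2* or *Trappc9* and *Peg13*, the sources used here do not state that counting used strand, and reads of the 2 partners may not be separated.

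Of the 13 maternally expressed genes 5 were lower in ΔA than in FL and none was higher, with a median log2 (fold change) of −0.20, and of the 19 paternally expressed genes tested 2 were lower and 2 higher, with a median of −0.03, against 4.87% lower and 3.74% higher among all genes tested. With the replicate block 6 of the maternally expressed genes were lower and 3 higher, and 2 of the paternally expressed genes were lower and 7 higher, against 30.5% of all genes called in either direction. The 5 lower without the block were *Meg3*, *Rian* and *Mirg*, which share a cluster, *Commd1* and *H13*. *Commd1* lies on chromosome 11, where the other genes had a median of −0.35, with 257 lower and 9 higher. The call of *H13* was kept without only 3 of the 12 libraries, each left out singly. The 2 paternally expressed genes that were lower without the block were *Peg3* and *Inpp5f*. For *Inpp5f* it is a brain isoform that is known as paternally expressed, and isoforms were not counted apart. The parental copy was taken as known for each gene and was not measured in these cells. Genes of a shared cluster were counted separately, so these counts do not show a trend by parental copy. The difference between the 2 sets was not tested. Within the *Dlk1*-Meg3 cluster all 4 values for ΔA minus FL were negative, in the *Snrpn* cluster all 3 were positive, and in the pairs of host and retrogene the 2 values differed in sign. *Snrpn* itself had only 2 to 28 counts per library. In the *Peg3* and *H19*-Igf2 clusters all values were negative. In the *Kcnq1ot1* cluster *Phlda2* was negative (−0.44) and the other genes positive, and *Peg13* and *Trappc9* differed in sign.

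Few imprinted genes were called for DOX. *Ndn* was lower with DOX in *Xist* FL and *Xist* ΔB+C, and none was called in *Xist* ΔA. By imaging of *Xist* RNA, the study found a coated X chromosome in only part of the cells given DOX. That part differed between lines, and the values with DOX are averages over cells with and without coating. *Ndn* was at 26.0 and 27.8 CPM in FL noDOX and at 17.1 and 17.0 CPM in FL DOX, and at 29.2 and 27.4 CPM in ΔB+C noDOX and 16.7 and 16.8 CPM in ΔB+C DOX. In ΔA it was at 37.6 and 31.2 CPM without DOX and 31.8 and 28.1 CPM with DOX, and only there did the groups overlap. The log2 (fold change) with DOX was −0.66 ± 0.12 in FL (adjusted p = 0.0433), −0.76 ± 0.12 in ΔB+C (adjusted p = 0.0164) and −0.20 ± 0.12 in ΔA (adjusted p = 1). The differences between these responses did not pass, at 0.46 ± 0.17 for ΔA minus FL (adjusted p = 0.624) and −0.56 ± 0.17 for ΔB+C minus ΔA (adjusted p = 0.260), though the latter did with the replicate block (adjusted p = 0.0321).

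This made 1 of 33 imprinted genes called in FL (1.08% of all genes tested), 0 in ΔA (0.00658%) and 1 in ΔB+C (2.48%). At an unadjusted p under 0.05 there was 1 imprinted gene in ΔA, *Zim1*, as were 1.19% of all genes, and DESeq2 also called none there. The call of *Ndn* in FL was kept without only 1 of the 12 libraries, ΔB+C DOX replicate 2, and in ΔB+C it was lost without any one of the 4 libraries compared. With the replicate block 2 were called in FL (11.9% of all genes), 0 in ΔA (0.0197%) and 8 in ΔB+C (19.6%). The second in FL was *Nnat*, at 61.2 and 54.3 CPM without DOX and 49.9 and 35.6 CPM with DOX (−0.45, adjusted p = 0.0066 with the block). No difference between the responses of 2 lines was called for an imprinted gene without the block, where 0% (ΔA minus FL), 0% (ΔB+C minus FL) and 0.164% (ΔB+C minus ΔA) of all genes were. Unadjusted p-values under 0.05 were found for 2, 1 and 5 of 33, against 7.07%, 0.901% and 11.4% of all genes, and DESeq2 called none. With the block 0, 0 and 4 were called, against 2.87%, 0% and 8.10% of all genes.

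**Figure D4:**
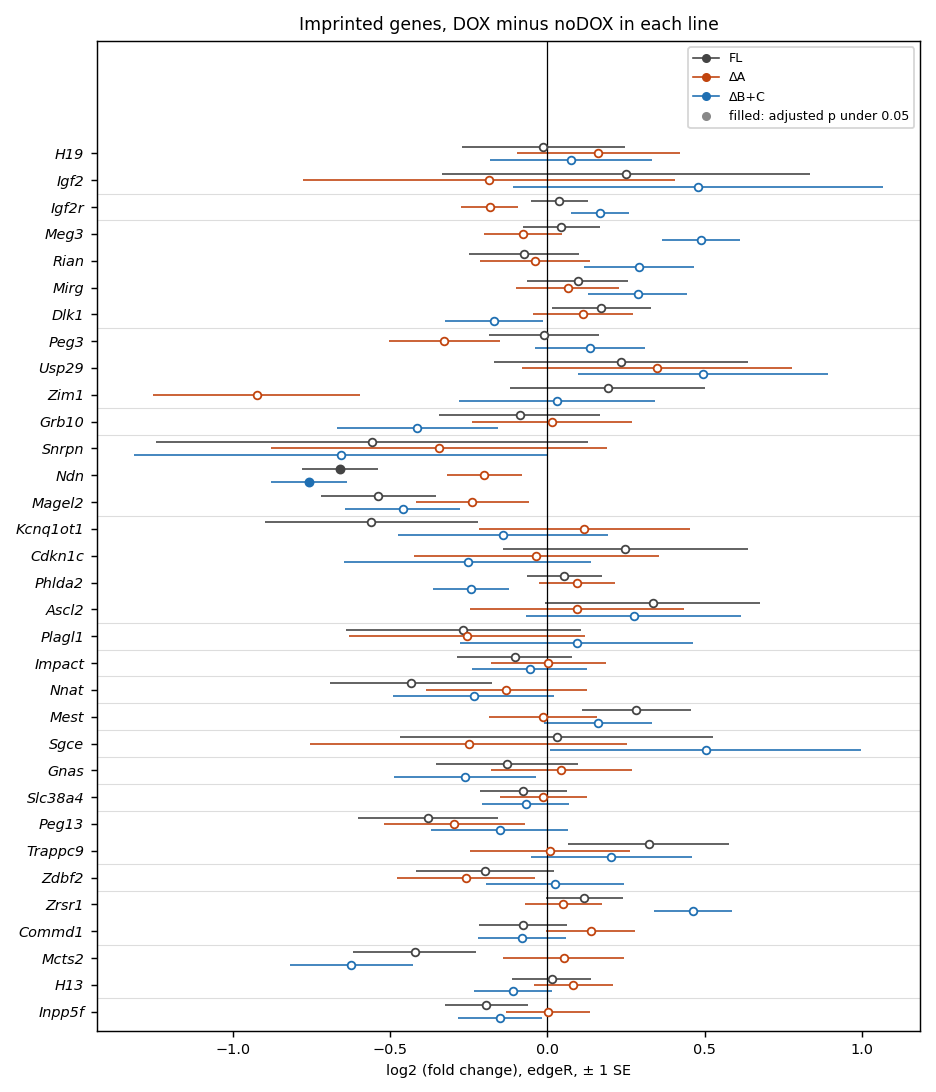
Log2 (fold change) of DOX minus noDOX for the 33 imprinted genes tested in each line, with 1 SE; filled points passed the test. The only filled points are those of *Ndn* in FL and in ΔB+C, at −0.66 and −0.76.

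*Ndn*'s neighbour *Magel2* went from 12.8 and 19.2 CPM to 11.4 and 10.6 CPM with DOX in FL, from 15.8 and 18.7 CPM to 13 and 12 CPM in ΔB+C and from 45.8 and 42.4 CPM to 38.8 and 35.9 CPM in ΔA. All 3 lines gave lower values with DOX without overlap, but none passed, at −0.54 ± 0.18 in FL (adjusted p = 0.253), −0.46 ± 0.18 in ΔB+C (adjusted p = 0.227) and −0.24 ± 0.18 in ΔA (adjusted p = 1). The 3 other tested genes within 1 Mb of the *Snrpn* cluster had medians of −0.50, −0.14 and −0.18 in FL, ΔB+C and ΔA.

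In ΔB+C, *Meg3* was at 215 and 175 CPM without DOX and 296 and 251 CPM with DOX, a difference of 0.49 ± 0.12 (adjusted p = 0.0771, and 0.0032 with the block). In FL the difference was 0.04 ± 0.12 (95% interval −0.20 to 0.29) and in ΔA −0.08 ± 0.12 (−0.32 to 0.17). *Rian* went from 180 and 151 CPM to 227 and 178 CPM in ΔB+C, with overlapping groups, and was called in the blocked fit (0.29, adjusted p = 0.0468). The test between lines for *Meg3* gave 0.56 ± 0.17 for ΔB+C minus ΔA (adjusted p = 0.268, and 0.0210 with the block) and 0.44 ± 0.17 for ΔB+C minus FL (adjusted p = 1 with and without the block).

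Both retrogenes have a parent gene on the X chromosome, which induced *Xist* silences in FL and ΔB+C but not in ΔA, so retrogene and parent were compared. *Mcts2* was at 11.5 and 10.8 CPM in FL noDOX and 9.09 and 7.53 CPM in FL DOX, at 14.0 and 13.5 CPM in ΔB+C noDOX and 10.6 and 7.23 CPM in ΔB+C DOX, and at 17.9 and 18.6 CPM in ΔA noDOX and 21.0 and 16.8 CPM in ΔA DOX. Its differences with DOX were −0.42 ± 0.20 in FL (adjusted p = 0.410), −0.62 ± 0.19 in ΔB+C (adjusted p = 0.135, and 0.00893 with the block) and 0.05 ± 0.19 in ΔA (adjusted p = 1). The X-linked parent *Mcts1* was at 28.8 and 22.4 CPM in FL noDOX and 16.5 and 11 CPM in FL DOX, with −0.90 ± 0.36 in FL (adjusted p = 0.330, and 0.000873 with the block), −0.86 ± 0.36 in ΔB+C (adjusted p = 0.250, and 0.000803 with the block) and −0.05 ± 0.35 in ΔA (adjusted p = 1). The longest transcripts of *Mcts2* and *Mcts1* were identical at 83.9% of 678 aligned bases, with a longest shared run of 29 bases. Whether reads of *Mcts1* were counted for *Mcts2* was not tested.

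For *Zrsr1* the directions differed from those of its parent. *Zrsr1* was at 18.1 and 15.5 CPM in ΔB+C noDOX and 23.9 and 22.4 CPM in ΔB+C DOX, a difference of 0.46 ± 0.12 (adjusted p = 0.0879, and 0.00836 with the block), with 0.12 ± 0.12 in FL (adjusted p = 0.743) and 0.05 ± 0.12 in ΔA (adjusted p = 1). The X-linked *Zrsr2* was at 59.5 and 54.8 CPM in FL noDOX and 46.0 and 42.6 CPM in FL DOX, with −0.37 ± 0.12 in FL (adjusted p = 0.251, and 0.00695 with the block), −0.18 ± 0.12 in ΔB+C (adjusted p = 0.486) and −0.02 ± 0.12 in ΔA (adjusted p = 1). Their longest transcripts aligned over 373 bases with 74.5% identity and a longest shared run of 14 bases. The 1271 other genes of chromosome 11 had a median of 0.13 with DOX in ΔB+C and 0.08 in FL.

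**Figure D5:**
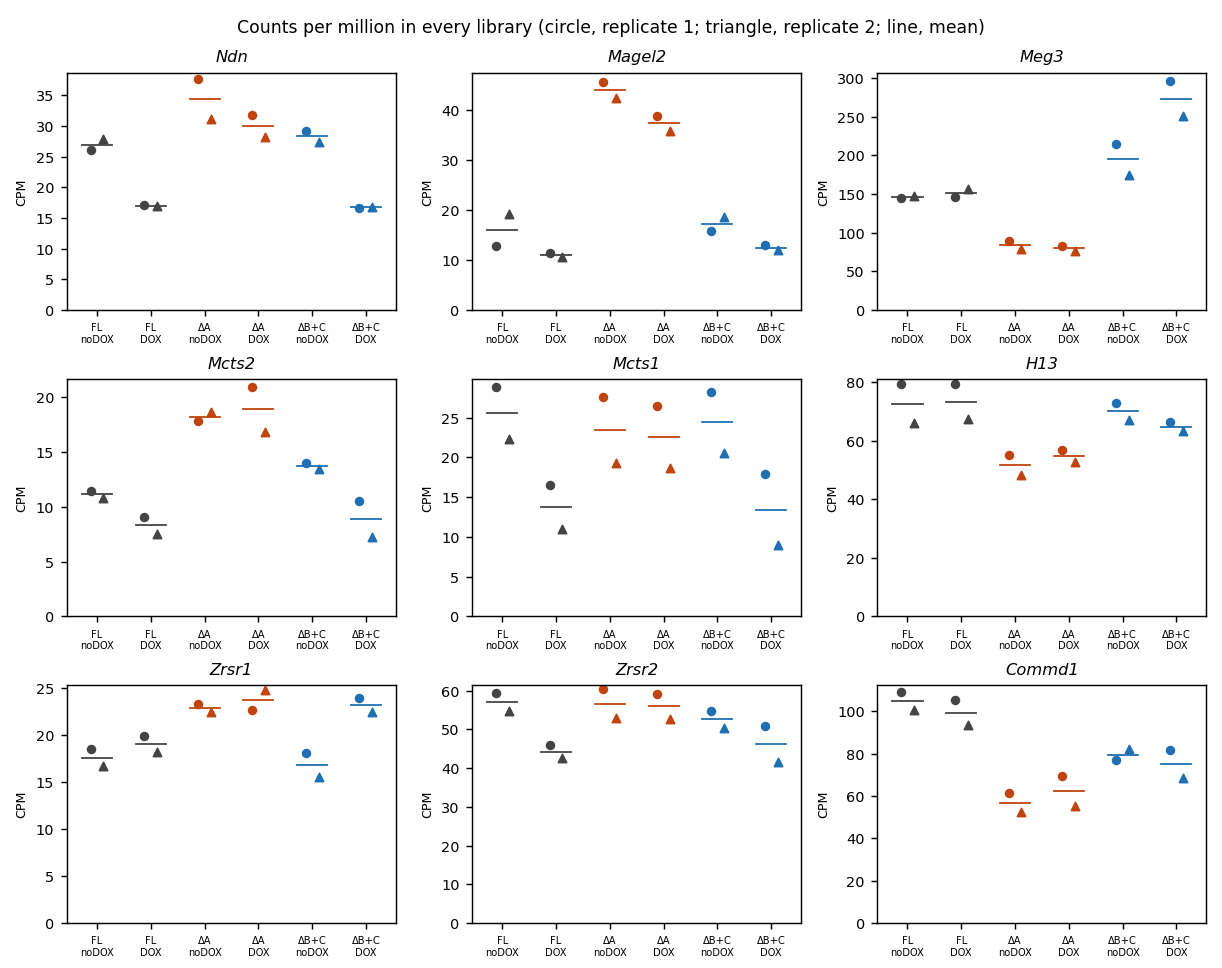
CPM of 7 imprinted genes and of the X-linked *Mcts1* and *Zrsr2* in each library, by line and treatment, with both replicates and their mean; each vertical axis starts at 0. *Ndn* is lower with DOX in FL and ΔB+C, and *Mcts2* and *Mcts1* are lower with DOX in the same lines, with values for *Mcts2* of −0.42 and −0.62 on the log2 scale.

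The remaining calls with the block in ΔB+C were *Grb10* (−0.44, adjusted p = 0.0155), *Gnas* (−0.26, adjusted p = 0.0271) and *Sgce* (0.50, adjusted p = 0.0169). *Grb10* was at 210 and 183 CPM without DOX and 182 and 113 CPM with DOX, and *Gnas* was at 448 and 338 CPM without DOX and 364 and 292 CPM with DOX. *Sgce* was at 11.8 and 6.43 CPM without DOX and 16.8 and 9.09 CPM with DOX. The second DOX value of each gene is from the library prepared from 100 ng of RNA, and the part of RNA input in these differences was not tested. For *Gnas* and *Sgce* the treated and untreated libraries overlapped, and the difference showed only within a replicate number; leaving out ΔB+C DOX replicate 1 turned the sign for *Sgce* (−0.013).

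More imprinted genes were called for replicate number than for DOX, but the 2 tests differ in power. The replicate term pools all 12 libraries, whereas each DOX test compares 2 groups of 2. The median absolute log2 (fold change) of the imprinted genes was 0.259 for replicate number. For DOX it was 0.191 in FL, 0.113 in ΔA and 0.235 in ΔB+C. Of 33, 19 differed between libraries labelled replicate 2 and replicate 1, against 42.8% of all genes; 5 were higher in replicate 2 (21.0% of all genes) and 14 lower (21.8%). *Sgce* was lower in replicate 2 in all 6 groups, by −0.85 ± 0.08 (adjusted p = 1.63e-05), and *Cdkn1c* was higher in all 6, by 0.66 ± 0.06 (adjusted p = 9.95e-06). *Nnat* (−0.42 ± 0.05, adjusted p = 9.92e-05), *Gnas* (−0.37 ± 0.04, adjusted p = 6.37e-05) and *Grb10* (−0.39 ± 0.06, adjusted p = 0.000559) were lower in replicate 2 in all 6 groups, and *H19* was higher in all 6 (0.40 ± 0.07, adjusted p = 0.000593). The labels do not say what the numbers stand for.

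Of 46 genes listed as neighbours in the same clusters, 35 were tested; 5 were higher in ΔA than in FL (*Adam23*, *Calcr*, *Casd1*, *Pon2* and *Mkrn3*) and none lower, with a median of 0.36, against 3.74% higher and 4.87% lower among all genes tested. For ΔB+C minus ΔA 4 were lower (*Adam23*, *Pon2*, *Pon3* and *Mkrn3*) and none higher, against 2.49% lower and 3.33% higher among all genes. *Adam23*, a disintegrin-like gene that lies near *Zdbf2*, was at 18.4 and 15.9 CPM in FL noDOX, 114 and 135 CPM in ΔA noDOX and 18.2 and 22.1 CPM in ΔB+C noDOX, higher in ΔA than in FL by 2.86 ± 0.26 (adjusted p = 0.000376). In the *Sgce*-Peg10 cluster, *Pon2*, a paraoxonase, was at 5.86 and 4.04 CPM in FL noDOX and 18.5 and 17.3 CPM in ΔA noDOX, a difference of 1.85 ± 0.33 (adjusted p = 0.0115). No listed neighbour was called for ΔB+C minus FL or with DOX in any line without the block. With the block 14 were higher and 1 lower in ΔA than in FL (30.5% of all genes called), and with DOX 4 were called in FL (11.9% of all genes), none in ΔA (0.0197%) and 6 in ΔB+C (19.6%). Of 13 other genes listed as imprinted and tested outside these clusters, 3 were higher in ΔA than in FL (*Dlx5*, *Nap1l5* and *Cmah*) and none was lower, against 3.74% and 4.87% of all genes. *Trim28*, a keeper of imprints, is among the 13 and is counted again with the keepers below. With the block 6 were higher and 4 lower, where 30.5% of all genes were called.

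Of 18 genes known to set, keep or remove methylation at imprints, all were tested, and 2 were higher and 1 lower in ΔA than in FL, where 8.61% of all genes were called. *Dppa3*, which shields imprints in the zygote, was at 11.7 and 13.1 CPM in FL noDOX, 1.87 and 2.87 CPM in ΔA noDOX and 11.2 and 13.7 CPM in ΔB+C noDOX, lower in ΔA than in FL by −2.39 ± 0.23 (adjusted p = 0.000582). *Tet1*, which oxidises methylated cytosine, was at 125 and 132 CPM in FL noDOX and 245 and 311 CPM in ΔA noDOX, a difference of 1.11 ± 0.17 (adjusted p = 0.00574), and *Tet3*, of the same family, gave 0.75 ± 0.19 (adjusted p = 0.0419). *Zfp57* was at 52.5 and 59.1 CPM in FL noDOX and 59.9 and 107 CPM in ΔA noDOX, and was not called. None of the 18 was called with DOX in any line without the block. With the block 7 were higher and 1 lower in ΔA than in FL (30.5% of all genes called), and with DOX 7 were called in FL (11.9% of all genes), none in ΔA (0.0197%) and 4 in ΔB+C (19.6%).

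The 13 ES cell markers had a median log2 (fold change) of 0.58 for ΔA minus FL, and none was called without the block, against 8.61% of all genes. With it 6 were higher and 2 lower, where 30.5% of all genes were called. Among them *Esrrb*, a nuclear receptor of pluripotent cells named after its values were seen, was at 21.8 and 26.4 CPM in FL noDOX and 33.7 and 109 CPM in ΔA noDOX, and was not called in either fit (adjusted p = 0.206, and 0.118 with the block). Sums over markers of other cell types differed between lines as well. The 6 mesendoderm markers summed to 178 and 244 CPM in FL noDOX, 43.0 and 49.3 CPM in ΔA noDOX and 110.5 and 205 CPM in ΔB+C noDOX. In FL DOX and ΔB+C DOX they summed to 38.7 to 135 CPM, and none was at 0 in any group. *T* and *Eomes* made up most of these sums. Without the block 3 of the 6 were lower in ΔA than in FL and none higher, against 4.87% and 3.74% of all genes. *Foxa2* went the other way, with means of 1.20 CPM in FL noDOX and 3.27 CPM in ΔA noDOX. With DOX 1 of the 6 mesendoderm markers was called in FL (1.08% of all genes) and 1 in ΔB+C (2.48%), both as lower. None was called with DOX in ΔA (0.00658%). The 8 primitive endoderm markers summed to 89.9 to 106 CPM in FL noDOX, 80.0 to 87.0 CPM in ΔA noDOX, 116 to 184 CPM in ΔB+C noDOX and 178 to 322 CPM in ΔB+C DOX. *Col4a1* alone gave 114 and 72.0 CPM in ΔB+C noDOX. Without the block none of the 8 was called for ΔA minus FL, ΔB+C minus FL or DOX in ΔB+C (8.61%, 0.0197% and 2.48% of all genes). For ΔB+C minus ΔA 1 was higher, as were 3.33% of all genes. The 8 trophoblast markers summed to 103 to 104 CPM in FL noDOX, 47.8 to 56.2 CPM in ΔA noDOX and 82.3 to 102 CPM in ΔB+C noDOX, with *Tpbpa* at 0 in every group. *Eomes* is in both the mesendoderm and the trophoblast list. It alone gave 61.3 and 72.0 CPM in FL noDOX and 29.7 and 25.25 CPM in ΔA noDOX. Of the 8 trophoblast markers, 6 were tested for ΔA minus FL, with a median of −0.94, and 1, *Eomes* (named after its values were seen), was lower (−1.28 ± 0.29, adjusted p = 0.0285), against 2 lower with the block. Of the 5 formative or epiblast markers 1 was higher in ΔA than in FL without the block, as were 3.74% of all genes. With DOX 2 of the 5 were lower in ΔB+C, where 2.48% of all genes were called, and none was called in FL or ΔA. None of the 4 neural markers was called between lines or with DOX without the block. The part of these cell types in the differences of the imprinted genes, between lines or with DOX, was not tested.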

How the data were processed

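Total RNA was sequenced as paired-end reads from 12 libraries of 3 cell lines, 6 groups of 2. The authors aligned reads to mm10 with TopHat2 2.1.0, keeping 1 hit per read, and counted fragments per gene with featureCounts 1.5.1 against refFlat genes; the deposited values are raw counts per gene, not normalized, and counting was not stated to use strand. The tool names and versions are those of the submitters' processing notes. Multiply mapping reads were assigned to 1 place, which can split reads between near-identical genes.

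From these counts, genes with at least 10 counts in at least 6 of 12 libraries were tested with the edgeR 4.0.16 quasi-likelihood test (R 4.3.3), with 1 mean per group over all libraries, TMM factors from the tested autosomal genes (0.975 to 1.02) and Benjamini-Hochberg adjustment over all 15198 genes at 0.05. With 2 libraries per group the fit had 6 residual degrees of freedom, and the biological coefficient of variation was 0.18. CPM values are TMM-scaled. The script was tested on simulated data. Replicate numbers are shared by all groups in the labels; deviations from group means correlated by 0.336 to 0.67 in all 15 pairs of groups (mean 0.519), so fits with the replicate number as a block are given where they change a call. DESeq2 1.42.0, limma 3.58.1, other scalings and filters and leaving out each library were the alternatives. No batch other than replicate number was given.

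The imprinted genes and the gene lists were chosen with earlier results of these data known. Every imprinted gene is named; neighbours and other imprinted genes outside the set are named only where they passed the test. Gene positions came from GENCODE vM21 (mm10, the same build), start-site windows from RefSeq (GRCm38.p6), and transcripts were aligned with Biopython 1.88 (local, match 1, mismatch −1, gap opening −3, gap extension −1). The 95% intervals of differences are the estimate and its SE times the normal quantile. Figures were drawn with matplotlib 3.10.9.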

Additional observations from a re-analysis of the deposited data

Results flagged for a closer look

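The response to DOX of 4 imprinted genes differed between ΔB+C and ΔA in the test of the difference itself, once replicate number was a block in the fit. This difference, ΔB+C minus ΔA on the log2 scale, was 0.56 ± 0.13 for *Meg3* (adjusted p = 0.0210), 0.46 ± 0.12 for *Peg3* (adjusted p = 0.0330), 0.76 ± 0.19 for *Sgce* (adjusted p = 0.0279) and −0.56 ± 0.14 for *Ndn* (adjusted p = 0.0321), from edgeR across all genes, of which 8.10% were called. The 4 called were 12.1% of the imprinted genes tested, not far from the share of all genes. Without the block none of the 4 passed, with adjusted p = 0.260 for *Ndn*, 0.268 for *Meg3*, 0.535 for *Peg3* and 0.765 for *Sgce*. For *Sgce* the response in ΔB+C changed sign when ΔB+C DOX replicate 1 was left out. Each group had 2 libraries, so a library far from the others of its group could not be sought. The second ΔB+C DOX library was prepared from 100 ng of RNA, and the part of RNA input was not tested.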

How the results depend on the processing

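Of the 1585 values that 77 single-gene results took under the alternatives, 1352 kept direction and side of the threshold, 118 gained a call, 113 lost one and 2 changed sign, both for *Sgce* without 1 library: ΔB+C minus ΔA without ΔB+C noDOX replicate 1 (−0.10, in a range of −0.10 to 0.79 over the libraries left out) and DOX in ΔB+C without ΔB+C DOX replicate 1 (−0.013, in a range of −0.013 to 1.01). The cause was not tested. The 3 comparisons of lines without DOX are given next in the order ΔA minus FL, ΔB+C minus FL and ΔB+C minus ΔA, with 9, 0 and 8 imprinted genes called. With the replicate block the counts were 19, 3 and 22, with DESeq2 14, 1 and 18, with the mean of noDOX and DOX libraries 17, 1 and 21, and with that mean and the block, an alternative chosen after seeing the data, 24, 14 and 27. The share of all genes called is not given here for DESeq2 or for fits without 1 library. Leaving out 1 library gave 1 to 11, 0 and 4 to 11.

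For DOX, with 1 call in FL and 1 in ΔB+C, the replicate block gave 2 in FL and 8 in ΔB+C, and the 4 libraries of the compared groups alone gave 0 in each. In FL limma-voom and scaling to library totals gave 0, and in ΔB+C DESeq2 gave 3. Leaving out 1 library gave 0 to 1 in each line. ΔA stayed at 0 under all alternatives run. The difference between the responses of ΔB+C and ΔA went from 0 to 4 with the block, and the replicate 2 minus replicate 1 count ranged from 16 to 20 without 1 library, against 19 with all libraries. Where leaving out a library left a group with 1, that library was assumed to vary like the others. Low genes (*Snrpn*, *Usp29*, *Zim1*, *Airn*) are limited by depth, and *Airn* did not pass the filter on low counts.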
